A study of Mus musculus with 6 samples.

Results

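The 36 genes described here are mostly genes of the lysosome and of autophagy. They were chosen by function, with earlier results of these data known. Most encode cathepsins and other hydrolases, lysosomal membrane proteins and transporters, and subunits of the proton pump. Others encode the transcription factor TFEB and proteins that build or load autophagosomes. Cst3, for a protease inhibitor, and Mitd1, for a MIT domain protein, stand outside these classes. All 36 were looked up on the array by gene symbol. Of the 36, 35 had at least 1 probe set of their own, with 76 probe sets in all out of 45037. The expression of Cd63 was not analysed here. Lgmn, which codes for the protease legumain, read at most 19.97 on any array and did not pass the filter on low values, which left 34 genes and 67 probe sets.

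The RNA came from granulocyte/macrophage progenitors (GMPs), the marrow precursors of granulocytes and monocytes, of BL6 mice. They were sorted as negative for lineage markers, IL-7R and Sca1, positive for Kit and CD34, and high for Fc gamma receptors. There were 6 arrays in 3 groups of 2: wild type (WT), deletion of the transcription factor IRF8 (IRF8 KO), and deletion of IRF8 together with its relative IRF4 (IRF4/8 DKO, the double knockout). Both knockout groups therefore lack IRF8. The labels give each array its own mouse. The WT mice were a male of 12 weeks (replicate 1) and a female of 19 weeks (replicate 2), the IRF8 KO mice a female of 12 weeks and a male of 22 weeks, and the IRF4/8 DKO mice a male and a female of 16 weeks. The study is about how loss of both factors leads to blood cancers.

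A lysosome is an acidic compartment in which proteases, glycosidases and lipases break down material taken up from outside or delivered from inside the cell. A vacuolar ATPase (V-ATPase) pumps protons into it, and heavily glycosylated membrane proteins line it. Autophagy encloses cytoplasm in a double membrane, decorates that membrane with proteins of the ATG8 family, and fuses it with the lysosome. TFEB and its relatives of the MiT/TFE family bind E-box elements in many lysosomal gene promoters. In the myeloid lineage lysosomes are prominent in monocytes and macrophages, and azurophil granules of granulocytes are related organelles.

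Values are array intensities on a linear scale. Differences are log2 fold changes of intensity + 10.5, with the standard error (SE) of a limma fit over all 6 arrays and Benjamini-Hochberg adjusted p-values over 29783 kept probe sets (threshold 0.05). Where a gene had several probe sets, the brightest on average stands for it, and intensities are compared between arrays only, not between genes. With 2 arrays per group, a p-value sets a difference between genotypes against the spread between mice of a genotype. That spread was pooled over the 3 genotypes and moderated with the other probe sets. It includes differences of sex in every group and of age in WT and IRF8 KO. Median intensity per array ranged from 34.1 to 45.3. The 12 GMP genes on the marker list were all measured, among them Mpo (12946 to 15417) and Kit (1680 to 2426). Of 10 genes that the sort should exclude, 6 had a probe set, and 4 of these, Il7r, Cd4, Cd8a and Itgam, passed the filter, with a summed intensity of 119 to 191 per array. Of the 4, 3 had means above WT in IRF8 KO and 1, Itgam, in the double knockout. Itgam read 35.6 and 40.2 in WT mice, 85.6 and 88.6 with IRF8 deleted and 81.6 and 134 with both deleted. Its limma adjusted p was 0.34 and 0.372. Cd34, a gene of the sort gate, read 1747 and 1401 in WT but 440 to 669 on the knockout arrays (limma adjusted p = 0.162 and 0.213). Fcgr3, for an Fc gamma receptor, read 1090 and 1259 in WT mice, 2618 and 6315 with IRF8 deleted and 2516 and 5863 with both deleted. Its limma adjusted p was 0.177 and 0.271. Of the 12 GMP genes, 8 had means above WT in IRF8 KO and 11 in the double knockout (53.1% and 52.5% of all genes did). Irf8 itself read 2588 and 3052 in WT mice, 3811 and 2602 with IRF8 deleted and 2611 and 4778 with both deleted. Its second probe set read 507 and 704, 1333 and 1131, and 934 and 1900, above WT on all 4 arrays labelled as knockouts (log2 fold change 1.03 and 1.14, limma unadjusted p = 0.0384 and 0.0245, adjusted p = 0.341 and 0.44). Neither was lower where the label says that IRF8 is deleted. The position of its probe sets relative to the deletion is not known here, so this does not check the genotype labels. Irf4 was low throughout, at 32.1 and 23.5 in WT mice, 13.8 and 7.66 with IRF8 deleted and 66.0 and 54.6 with both deleted. Its second probe set read 33.1 and 16.8, 29.7 and 14.1, and 11.8 and 20.15 in the same order. The Irf4 probe sets went in opposite directions in the double knockout against WT (log2 fold change 0.89 and -0.40), and the same limit holds.

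The E-box was found before a larger share of these genes than of all protein-coding genes. Promoters came from RefSeq (build GRCm38.p6) and were matched by symbol for 32 of the 36 genes; Ctsb, Ctsh, Npc1 and Becn1 had no entry. In the 250 bases before the start, searched on both strands, the E-box CACGTG was present in 10 of 32 genes (31.2%), against 7.61% of 17491 protein-coding genes and 6.86% of 27025 genes of any type. The longer TCACGTGA, each match of which also holds CACGTG, was present in 4 of 32 (12.5%) against 1.15% of protein-coding genes. The 4 promoters with TCACGTGA, and that of Lamp1, which holds 4 separate CACGTG matches, read as follows on the strand of the gene, with the matches in capitals.

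Ctsa, chr2:164833740-164833772, plus strand: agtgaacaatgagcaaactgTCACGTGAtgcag

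Ctsd, chr7:142387899-142387946, minus strand: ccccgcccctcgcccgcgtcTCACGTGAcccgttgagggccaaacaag

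Gla, chrX:134601173-134601253, minus strand: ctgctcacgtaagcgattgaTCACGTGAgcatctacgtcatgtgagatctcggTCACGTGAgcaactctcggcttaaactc

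Atp6v1a, chr16:44139364-44139411, minus strand: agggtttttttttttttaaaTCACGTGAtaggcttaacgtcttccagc

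Lamp1, chr8:13159080-13159160, plus strand: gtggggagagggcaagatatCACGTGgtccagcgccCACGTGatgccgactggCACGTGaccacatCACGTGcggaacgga

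The matches shown end 6 bases before the start in Ctsa and 10 bases before it in Lamp1, while those of Ctsd, Atp6v1a and Gla lie between 92 and 228 bases upstream. Ctsd held a further CACGTG, not shown, 240 to 245 bases before the start. The other genes with CACGTG were Ctsl, Lgmn, Gaa, Atg5 and Atg7. Among 111 other genes of these pathways with a promoter entry, 25 (22.5%) held CACGTG and 10 (9.01%) held TCACGTGA. Letters related to IRF binding were nearer to their share elsewhere: GAAANNGAA, part of the interferon response element, was present in 4 of 32 genes (12.5%) against 7.94% of protein-coding genes, and GGAANNGAA, part of the composite element of ETS factors and IRFs, in 1 of 32 (3.12%, Atg5) against 7.69%. The ETS core GGAAGT, which can lie within GGAANNGAA, was present in 6 of 32 (18.8%) against 23%. Ctss and Tcirg1, which had the lowest unadjusted p of the lower and of the higher genes in IRF8 KO, both held GAAANNGAA, and their matches are shown for that reason. The other 2 genes with these letters, Lamp1 and Mitd1, had log2 fold changes of -0.0013 and 0.19 in IRF8 KO.

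Ctss, chr3:95526745-95526785, plus strand: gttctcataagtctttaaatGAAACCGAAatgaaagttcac

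Tcirg1, chr19:3905400-3905448, minus strand: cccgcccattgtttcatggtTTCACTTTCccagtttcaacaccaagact

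The Ctss match lies 13 to 21 bases before the start and reads on the strand of the gene, while the Tcirg1 match lies 190 to 198 bases before it and reads on the other strand. A match describes letters in this window, not a bound site.

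None of the 34 genes passed the limma test in any comparison. The share of all measured genes called was 0.0452% for IRF8 KO against WT, 0.407% for the double knockout against WT, and 0% between the knockout genotypes (over kept probe sets 0.0302%, 0.299% and 0%), so a list of 34 genes would hold few calls at that rate. Over all 67 of their probe sets the count was 0 too. At an unadjusted p under 0.05, 2 genes were higher and 1 lower in IRF8 KO than in WT, when 6.48% and 5.53% of all genes were. In the double knockout 1 was higher and 1 lower than in WT, when 4.25% and 3.75% of all genes were, and 2 were higher and 0 lower than in IRF8 KO, when 3.87% and 3.91% were. The lowest adjusted p was 0.242 (Tcirg1), 0.487 (Ctsb) and 0.548 (Ulk1). The 95% interval of the brightest probe set excluded a 2-fold difference in either direction for 13, 8 and 9 of the 34 genes. Among all 13267 genes it did so for 2201, 2579 and 2337, in the same order. The median half-width of the intervals was 0.92 on the log2 scale for the 34 genes and 0.97 for all genes.

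**Figure D1:**
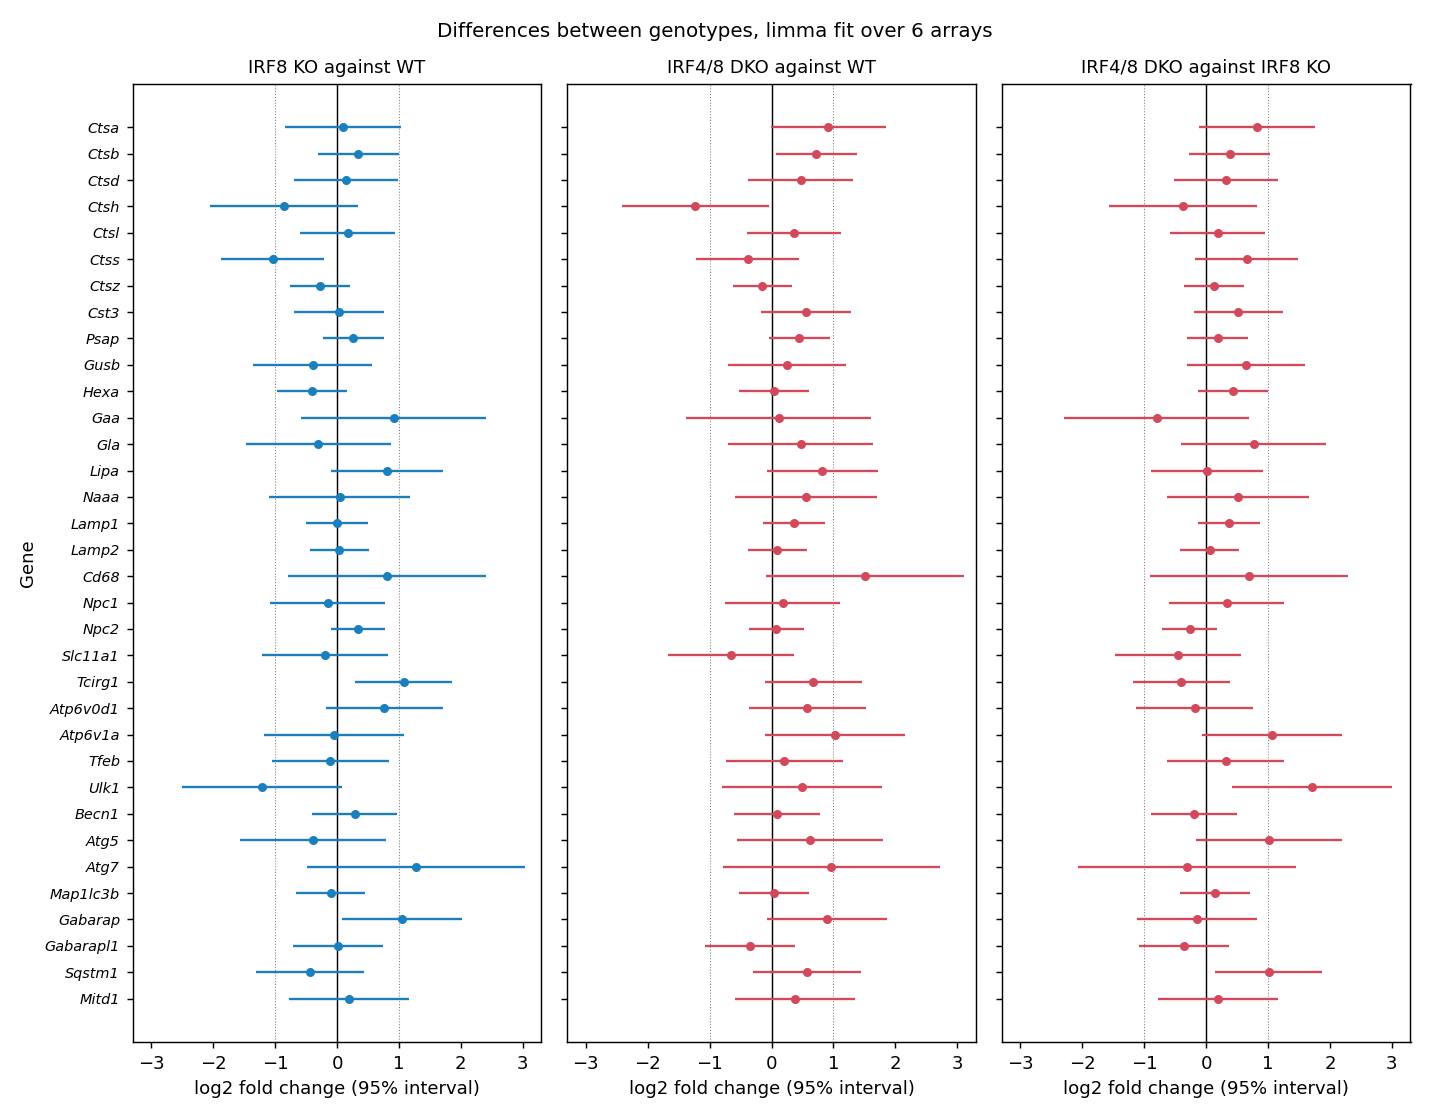
Log2 fold change of each of the 34 genes (points) with its 95% interval (lines) from the limma fit, in panels for IRF8 KO against WT, the double knockout against WT, and the knockout genotypes against each other, with 2 arrays per genotype; dotted lines mark a 2-fold difference. Most points lie right of 0 in the middle panel (29 of 34), and none passed the adjusted test.

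As a group the genes lay close to WT in IRF8 KO and somewhat above it in IRF4/8 DKO. In IRF8 KO 19 of 34 had a mean above WT (55.9%, with 53.1% of all genes), with a median log2 fold change of 0.03 against 0.04 for all genes. In IRF4/8 DKO 29 of 34 lay above WT (85.3%, with 52.5% of all genes), with a median of 0.42 against 0.03. Against IRF8 KO, 24 of 34 lay higher in IRF4/8 DKO (70.6%, with 49% of all genes), with a median of 0.26 against -0.01. Both comparisons with WT share the same 2 WT arrays. After median centring, which moved the median of all genes to 0.18 in IRF8 KO and 0.25 in IRF4/8 DKO, 23 and 30 of 34 genes lay above WT, with 62.6% and 70.7% of all genes. After quantile normalization 18 and 25 of 34 did, with 53.3% and 52.9% of all genes. The median of the 34 genes in IRF4/8 DKO was then 0.34.

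The shift in IRF4/8 DKO rested largely on 1 array. Set against the WT mean, the median of the 34 genes was -0.12 and 0.12 on the WT arrays, -0.02 and 0.07 with IRF8 deleted and 0.18 and 0.60 with both deleted. IRF4/8 DKO replicate 2 was the highest array for 18 of 34 genes (52.9%, with 21.8% of all genes) and the lowest for 0. WT replicate 1 was the lowest for 12 (35.3%, with 13.1% of all genes). Without IRF4/8 DKO replicate 2, 22 of 34 genes lay above WT (64.7%, with 50.3% of all genes) at a median of 0.18, and without WT replicate 1 it was 25 at a median of 0.25. Against IRF8 KO the median was 0.08 without IRF4/8 DKO replicate 2, with 20 of 34 genes higher, and 0.16 without IRF8 KO replicate 1. Arrays of a genotype differed by more than 2-fold for 2 of the 34 genes among WT mice, 7 with IRF8 deleted and 8 with both deleted (5.88%, 20.6% and 23.5%, with 5.98%, 22.4% and 15.2% of all genes).

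**Figure D2:**
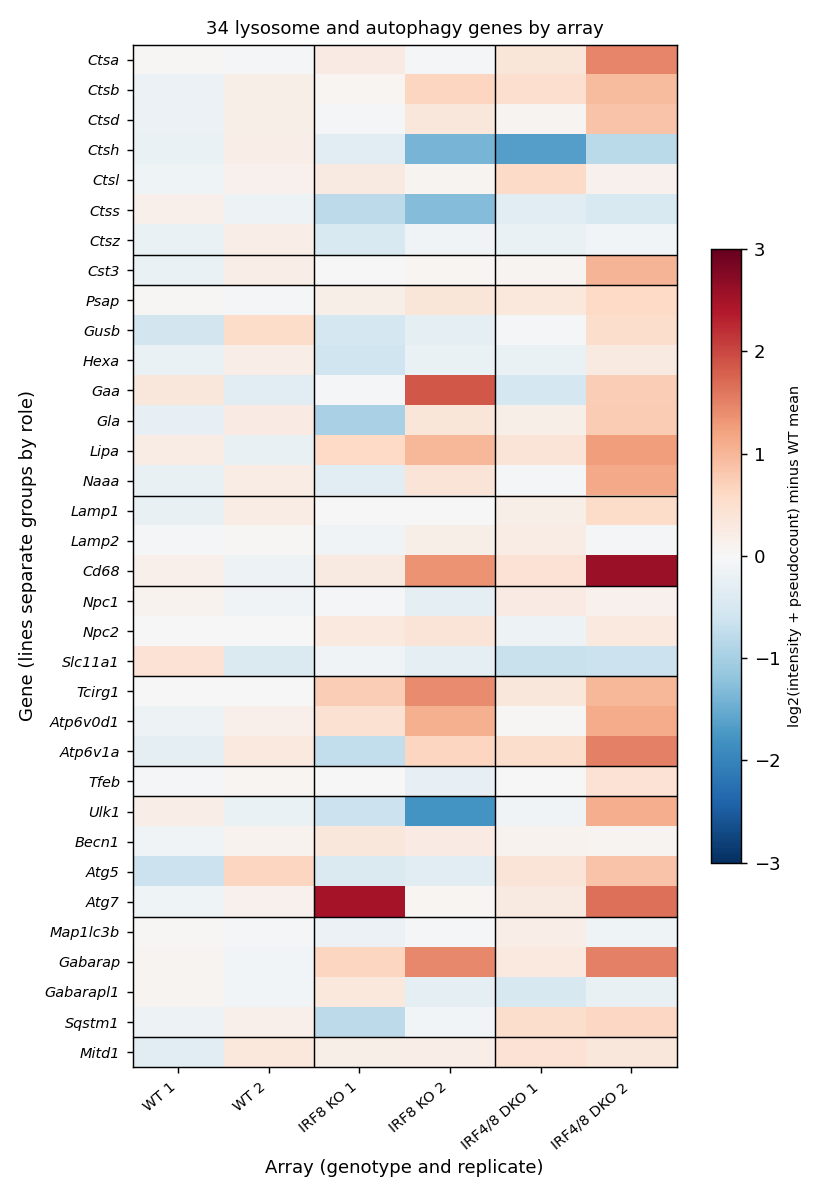
Log2(intensity + 10.5) of each of the 34 genes on each of the 6 arrays, minus the mean of the WT arrays (colour scale, red above and blue below WT), with genes ordered by role and horizontal lines between roles. The column of IRF4/8 DKO replicate 2 is the reddest, with the highest value for 18 of 34 genes, and Ctsh and Ctss are blue on all 4 knockout arrays.

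Markers of other cell types also differed between these arrays, in part in other patterns. The 15 measured of 21 listed monocyte and macrophage genes had a summed intensity of 14221 and 15406 in WT mice, 25736 and 27267 with IRF8 deleted and 26747 and 35365 with both deleted, again highest in IRF4/8 DKO replicate 2, but also above WT in IRF8 KO, where the lysosomal genes lay near WT. By gene, 10 of these 15 had means above and 5 below WT in IRF8 KO, with 0 called higher and 1 lower. In the double knockout 11 lay above and 4 below, with 4 called higher and 1 lower. Of all 13267 genes, 53.1% in IRF8 KO and 52.5% in the double knockout lay above WT, which also holds beside the lists below. Of these 13267, 3 were called higher and 3 lower in IRF8 KO, and 22 higher and 32 lower in the double knockout. The macrophage marker Adgre1, for F4/80, read 132 on both WT arrays, 516 and 840 with IRF8 deleted and 1058 and 1406 with both deleted (limma adjusted p = 0.0988 and 0.0342), and Ccr2, Mpeg1 and Cd14 were also called higher in the double knockout. Ly86 was called lower in both knockout genotypes (limma adjusted p = 0.00848 and 0.00781). Of other genes of resident macrophages, Mrc1 read 18.8 and 31.9 in WT and 35.6 to 66.2 on the knockout arrays, C1qa read at most 28.0, C1qc stayed under 10.5 on every array, and C1qb and Mertk did not pass the filter. Neutrophil maturation genes (13 of 15) summed to 13506 and 33960 in WT mice, 34302 and 59949 with IRF8 deleted and 29391 and 57417 with both deleted, highest in IRF8 KO replicate 2. All 11 measured eosinophil, basophil and mast cell genes and all 10 measured stem and progenitor genes had means below WT in both knockout genotypes. Of 10 erythroid and megakaryocyte genes, 10 lay below WT in IRF8 KO and 9 in the double knockout. Dendritic cell genes were mixed (4 above and 5 below WT in IRF8 KO, 5 and 4 in the double knockout), as were lymphoid genes (6 and 2, then 4 and 4). The part of all these markers in the differences of lysosomal genes was not tested. More cells of a type and more RNA per cell cannot be told apart in bulk samples.

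**Figure D3:**
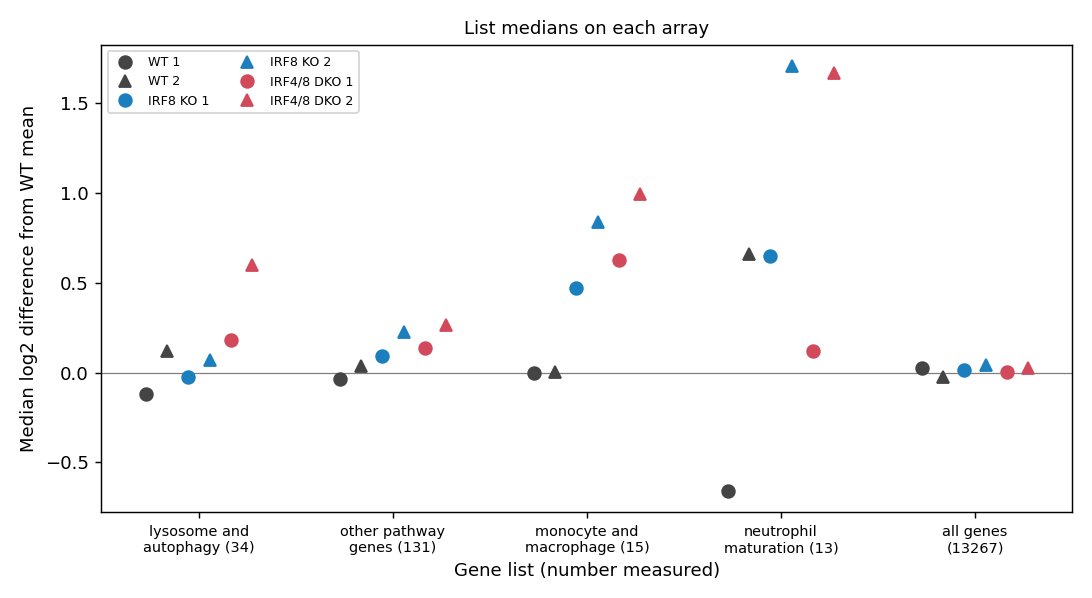
Median log2 difference from the WT mean on each array (circles replicate 1, triangles replicate 2; colours show genotype), for the 34 lysosome and autophagy genes, 131 other genes of these pathways, 15 monocyte and macrophage genes, 13 neutrophil maturation genes and all 13267 genes. IRF4/8 DKO replicate 2 is highest for the lysosome and autophagy genes (0.60), and the medians of all genes stay between -0.02 and 0.04.

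Lysosomal proteases went in both directions. Ctss and Ctsh were lower on every knockout array than on either WT array, whereas the 4 kept probe sets of Ctsb all had higher means than WT in both knockout genotypes. Cathepsin S, encoded by Ctss, trims the invariant chain from MHC class II molecules. Ctss read 1264 and 1036 in WT mice, 659 and 462 with IRF8 deleted and 913 and 837 with both deleted. Every knockout array was below both WT arrays, and the IRF8 KO arrays were the lowest. The log2 fold change was -1.04 ± 0.37 SE in IRF8 KO (limma unadjusted p = 0.0201, adjusted p = 0.276) and -0.38 ± 0.37 in IRF4/8 DKO (adjusted p = 0.836). Cathepsin H is an aminopeptidase. Ctsh read 283 and 372 in WT mice, 258 and 117 with IRF8 deleted and 95.5 and 182 with both deleted. Again the knockout arrays lay below WT, without overlap. Its log2 fold change was -0.86 ± 0.53 in IRF8 KO (limma adjusted p = 0.521) and -1.23 ± 0.53 in IRF4/8 DKO (unadjusted p = 0.0449, adjusted p = 0.528), and the other Ctsh probe set gave -0.64 and -1.14.

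Cathepsin B is an abundant endo- and exopeptidase of lysosomes. Ctsb read 2408 and 3105 in WT mice, 2834 and 4254 with IRF8 deleted and 3859 and 5292 with both deleted. The double knockout arrays lay above WT and the IRF8 KO arrays overlapped it. The log2 fold change was 0.34 ± 0.29 in IRF8 KO and 0.72 ± 0.29 in IRF4/8 DKO (limma unadjusted p = 0.0332, adjusted p = 0.487), and over the 4 probe sets it ranged from 0.34 to 1.31 and from 0.72 to 1.49. Ctsa codes for the protective protein/cathepsin A, a carboxypeptidase that also stabilises beta-galactosidase and neuraminidase. It read 987 and 925 in WT mice, 1132 and 921 with IRF8 deleted and 1229 and 2671 with both deleted (log2 fold change 0.92 ± 0.41 in IRF4/8 DKO, limma adjusted p = 0.565). Only IRF4/8 DKO replicate 2 stood clearly apart. The aspartic protease gene Ctsd read 1018 and 1322, 1131 and 1466, and 1224 and 2113 in the same order, and Ctsl, for cathepsin L, read 924 and 1119, 1230 and 1069, and 1525 and 1122. Neither gene differed by more than 0.47 on the log2 scale from WT. Ctsz, for the carboxypeptidase cathepsin Z, read 5539 and 7301 in WT mice, 4651 and 5953 with IRF8 deleted and 5518 and 5975 with both deleted. Its log2 fold change was -0.27 ± 0.21 in IRF8 KO and -0.15 ± 0.21 in IRF4/8 DKO, and the 95% intervals (-0.76 to 0.21 and -0.63 to 0.34) excluded a 2-fold difference for this probe set, while its other probe sets reached 0.51 in IRF4/8 DKO. The inhibitor of these cysteine proteases, cystatin C, is encoded by Cst3, which read 2772 and 3679 in WT mice, 3173 and 3353 with IRF8 deleted and 3381 and 6501 with both deleted. The last array stood far above the rest (log2 fold change 0.55 ± 0.32 against WT, limma adjusted p = 0.69).

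Among the hydrolases of glycans and lipids, Psap and Lipa lay above WT on all 4 knockout arrays. Psap codes for prosaposin, the precursor of the saposins that present sphingolipids to their hydrolases. It read 3394 and 3257 in WT mice, 3735 and 4265 with IRF8 deleted and 4116 and 5017 with both deleted. The step was small, with a log2 fold change of 0.26 ± 0.22 in IRF8 KO and 0.45 ± 0.22 in IRF4/8 DKO (limma adjusted p = 0.637 and 0.607). The second Psap probe set read 851 and 1157, 1979 and 2043, and 1085 and 2612, and gave 1.01 and 0.76. Lipa, for lysosomal acid lipase, read 911 and 660 in WT mice, 1184 and 1560 with IRF8 deleted and 1024 and 1855 with both deleted. No knockout array lay within the WT range, and the differences from WT were 0.80 ± 0.40 and 0.82 ± 0.40 on the log2 scale (limma adjusted p = 0.421 and 0.612). All 3 Lipa probe sets were above WT, from 0.10 to 0.80 in IRF8 KO and from 0.22 to 0.82 in IRF4/8 DKO.

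The means of the 4 glycosidase genes lay on both sides of WT in IRF8 KO (Hexa -0.40, Gusb -0.39, Gla -0.30 and Gaa 0.92 on the log2 scale) and slightly above it in the double knockout (0.04, 0.25, 0.47 and 0.11), with arrays that overlapped WT for every one. Hexa, for the alpha subunit of beta-hexosaminidase, read 5056 and 6716 in WT mice, 3831 and 5095 with IRF8 deleted and 5087 and 7074 with both deleted. The WT and double knockout arrays covered the same range, with a log2 fold change of 0.04 (95% interval -0.52 to 0.61). Gusb, for beta-glucuronidase, read 921 and 1986 in WT mice, 942 and 1120 with IRF8 deleted and 1328 and 1945 with both deleted, so its WT arrays differed by more than 2-fold and spanned all others. Gla, for alpha-galactosidase A, read 475 and 682, 286 and 737, and 647 and 970 in the same order. Gaa, for acid alpha-glucosidase, read 922 and 573 in WT mice, 706 and 2689 with IRF8 deleted and 505 and 1225 with both deleted. One array, IRF8 KO replicate 2, was far above the rest, and the other Gaa probe set, which read 389 to 524, did not show it (415 on that array). Naaa, for an amidase of N-acylethanolamines, was low on every array (25.4 to 87.3).

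The brightest probe sets of Lamp1 and Lamp2 differed little from WT, and that of Cd68 more. LAMP1 and LAMP2 are the main glycoproteins of the lysosomal membrane. Lamp1 read 4338 and 5919 in WT mice, 5030 and 5096 with IRF8 deleted and 5741 and 7406 with both deleted. Lamp2 read 4216 and 4357, 3982 and 4832, and 4978 and 4171. For both probe sets the knockout arrays overlapped WT, while the double knockout arrays of Lamp1 lay above those of IRF8 KO. The 95% intervals of these probe sets against WT stayed within 2-fold in both knockout genotypes (Lamp1 -0.50 to 0.50 and -0.14 to 0.86, Lamp2 -0.44 to 0.51 and -0.39 to 0.56). Another Lamp2 probe set read 448 and 550 in WT mice, 655 and 1098 with IRF8 deleted and 961 and 697 with both deleted, above WT on all 4 knockout arrays, and its intervals reached past 2-fold (0.76, -0.18 to 1.70, and 0.71, -0.23 to 1.65). Cd68 codes for a LAMP family glycoprotein of monocytes and macrophages, known there as macrosialin. It read 148 and 120 in WT mice, 164 and 355 with IRF8 deleted and 182 and 853 with both deleted. All 4 knockout arrays were above WT, but the replicates of each knockout genotype differed by more than 2-fold. On the log2 scale they differed from WT by 0.81 ± 0.70 and 1.51 ± 0.70 (limma adjusted p = 0.658 and 0.588), the largest in IRF4/8 DKO among the 34 genes.

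Of the sterol and metal transport genes, Npc1 and Npc2 hand cholesterol out of the lysosome, and Slc11a1 codes for NRAMP1, a metal transporter of phagosomes. Npc1 read 204 and 174 in WT mice, 183 and 155 with IRF8 deleted and 225 and 206 with both deleted. Npc2 read 5824 and 5726, 7096 and 7526, and 5201 and 7128. The IRF8 KO arrays of Npc2 lay above WT and the double knockout arrays lay on both sides of it (log2 fold change 0.34 ± 0.20, limma adjusted p = 0.491, and 0.08 ± 0.20). A dimmer Npc2 probe set read 80.9 and 161 in WT mice, 375 and 217 with IRF8 deleted and 258 and 420 with both deleted. It was above WT on all 4 knockout arrays, by 1.24 ± 0.52 and 1.44 ± 0.52 on the log2 scale (limma unadjusted p = 0.0401 and 0.0213, adjusted p = 0.346 and 0.423). Slc11a1 read 209 and 112 in WT mice, 141 and 124 with IRF8 deleted and 92.95 and 95.04 with both deleted. The double knockout arrays were the lowest, at a log2 fold change of -0.65 ± 0.45 against WT (limma adjusted p = 0.762).

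The V-ATPase genes included the member with the lowest p of IRF8 KO against WT. Tcirg1 codes for the a3 subunit of the membrane sector of the pump, which osteoclasts need to resorb bone. It read 1272 and 1307 in WT mice, 2159 and 3441 with IRF8 deleted and 1644 and 2593 with both deleted. Every knockout array was above WT, whose replicates were close, and the log2 fold change was 1.07 ± 0.34 in IRF8 KO (limma unadjusted p = 0.0126, adjusted p = 0.242) and 0.68 ± 0.34 in IRF4/8 DKO (adjusted p = 0.635). Atp6v0d1, for the d1 subunit that couples the sectors, read 1017 and 1239 in WT mice, 1541 and 2371 with IRF8 deleted and 1145 and 2458 with both deleted. Atp6v1a, for the catalytic A subunit, read 1345 and 2018 in WT mice, 982 and 2588 with IRF8 deleted and 2393 and 4703 with both deleted. Its double knockout arrays lay above WT and its IRF8 KO arrays on both sides of WT (1.02 ± 0.50 and -0.05 ± 0.50 on the log2 scale, limma adjusted p = 0.615 and 0.98). Between the knockout genotypes it was 1.07 ± 0.50 (limma adjusted p = 0.601). The second Atp6v1a probe set read 267 and 524 in WT mice, 241 and 284 with IRF8 deleted and 416 and 416 with both deleted. There the double knockout arrays lay within the WT range. Its log2 fold change was -0.50 in IRF8 KO, 0.15 in IRF4/8 DKO and 0.65 between the knockout genotypes. The transcription factor gene Tfeb read 106 and 117 in WT mice, 113 and 93.0 with IRF8 deleted and 110 and 154 with both deleted, with overlap in every comparison.

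Autophagy genes of the first steps were led by Ulk1, which codes for the kinase that starts autophagy under nutrient stress. Ulk1 read 289 and 216 in WT mice, 157 and 65.0 with IRF8 deleted and 233 and 544 with both deleted. The IRF8 KO arrays were below all others, and the log2 fold change between the knockout genotypes was 1.71 ± 0.57 (limma unadjusted p = 0.0154, adjusted p = 0.548), the largest of the 34 genes in that comparison. The second Ulk1 probe set, which read 99.8 to 181, gave -0.18 there, in the other direction. Becn1 codes for beclin 1, a subunit of the lipid kinase complex that marks the forming membrane. It read 1103 and 1279 in WT mice, 1494 and 1404 with IRF8 deleted and 1275 and 1249 with both deleted. Its 3 kept probe sets ranged from -0.52 to 0.28 in IRF8 KO and from -0.14 to 0.12 in IRF4/8 DKO, on both sides of WT. Atg5, part of the conjugation machinery of ATG8 proteins, read 106 and 276 in WT mice, 124 and 134 with IRF8 deleted and 229 and 320 with both deleted. Atg7 codes for the E1-like enzyme of that machinery. It read 191 and 231 in WT mice, 1225 and 220 with IRF8 deleted and 255 and 688 with both deleted. A single array, IRF8 KO replicate 1, was more than 5 times its partner. The 3 other Atg7 probe sets, all at 121 or lower, read 31.5 and 97.2, 19.9 and 3.36, and 39.0 and 11.7 on the IRF8 KO arrays, so replicate 1 was the higher for 2 of them and the lower for 1. Their log2 fold changes in IRF8 KO were -0.45, -0.71 and 0.12.

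In the ATG8 family, Gabarap lay above WT on all 4 knockout arrays. Its protein acts late in autophagosome formation and fusion. Gabarap read 1453 and 1287 in WT mice, 2153 and 3729 with IRF8 deleted and 1685 and 3896 with both deleted. The log2 fold change was 1.05 ± 0.43 in IRF8 KO (limma unadjusted p = 0.0375, adjusted p = 0.339) and 0.90 ± 0.43 in IRF4/8 DKO (adjusted p = 0.6). Map1lc3b, for LC3B, the usual marker of autophagosomes, read 2733 and 2602 in WT mice, 2369 and 2594 with IRF8 deleted and 3042 and 2454 with both deleted. The 95% intervals of this probe set stayed within 2-fold of WT (-0.67 to 0.46 and -0.53 to 0.60), although both IRF8 KO arrays lay below WT. The 4 kept Map1lc3b probe sets ranged from -0.99 to 0.26 in IRF8 KO and from -0.37 to 0.42 in IRF4/8 DKO. Gabarapl1 read 1910 and 1679 in WT mice, 2221 and 1463 with IRF8 deleted and 1286 and 1540 with both deleted. Sqstm1 codes for p62, the receptor that ties ubiquitinated cargo to ATG8 proteins and is itself degraded with it. It read 740 and 902 in WT mice, 469 and 768 with IRF8 deleted and 1189 and 1254 with both deleted. The double knockout arrays lay above all others (1.01 ± 0.38 against IRF8 KO, limma unadjusted p = 0.0269, adjusted p = 0.561). Mitd1, for a MIT domain protein that works with the ESCRT-III machinery in cell division, read 164 and 257 in WT mice, 232 and 239 with IRF8 deleted and 281 and 262 with both deleted.

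In all, 5 of 34 genes had every knockout array above both WT arrays, namely Psap, Lipa, Cd68, Tcirg1 and Gabarap (14.7%, when 10.7% of all genes did), and 2, Ctsh and Ctss, had every knockout array below (5.88%, when 8.69% did). Without overlap with WT, 8 genes were higher and 4 lower in IRF8 KO, when 23.9% and 20.7% of all genes were. In IRF4/8 DKO it was 13 and 4, when 21.1% and 19.6% were, and between the knockout genotypes 10 and 2, when 17.6% and 18% were. As shares of the 34 genes, these counts were 23.5% and 11.8% in IRF8 KO, 38.2% and 11.8% in the double knockout against WT, and 29.4% and 5.88% between the knockout genotypes.

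Probe sets of a gene did not always read alike. For the 20 genes with more than 1 kept probe set, all probe sets of the gene had the same sign for 12 genes when IRF8 KO was set against WT, 13 for the double knockout against WT, and 7 between the knockout genotypes. Ctsb (4 probe sets), Lamp2 (4), Lipa (3) and Npc2 (3) were above WT throughout, and Ctsh (2) was below. Atg7, Map1lc3b, Becn1, Gaa and Ulk1 lay on both sides in either comparison with WT. For Sqstm1 the lower probe set read 85.0 and 58.9 in WT mice, 28.8 and 20.2 with IRF8 deleted and 34.7 and 15.9 with both deleted, below WT in both knockout genotypes (log2 fold change -1.23 and -1.24), while the probe set above read higher than WT in the double knockout.

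**Figure D4:**
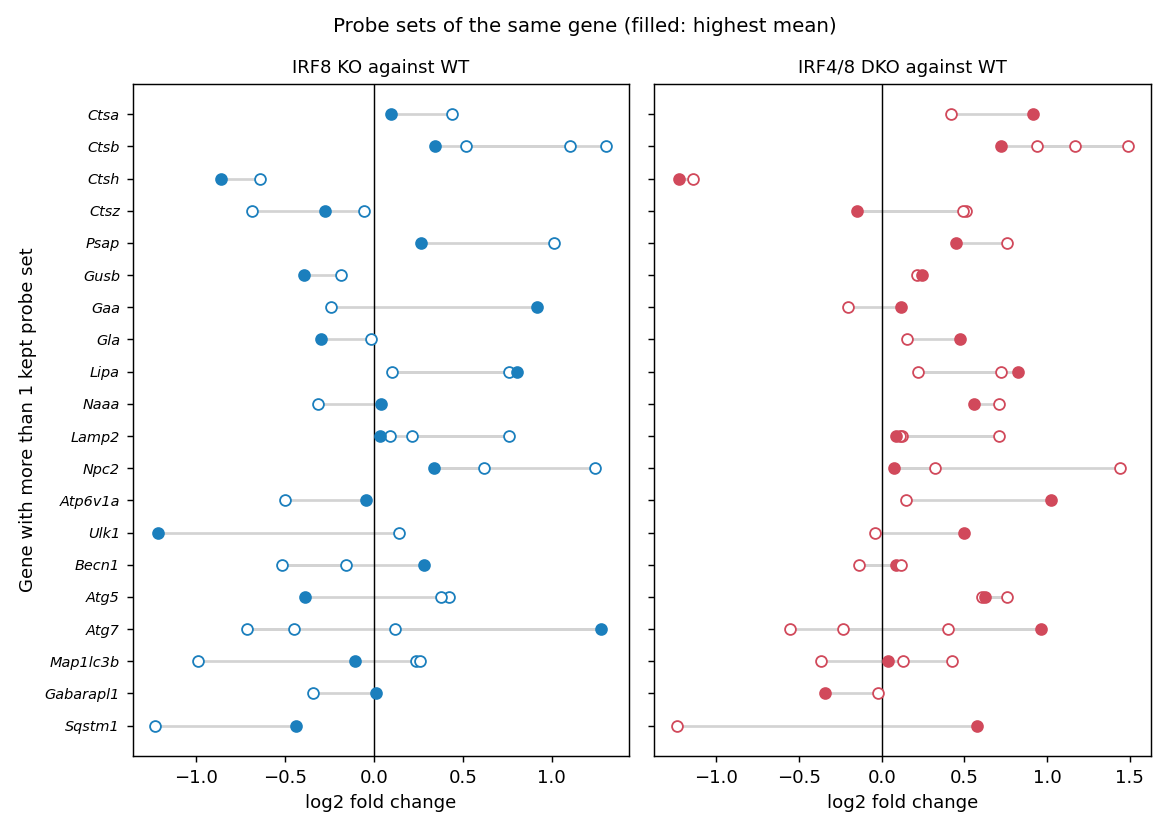
Log2 fold change against WT of each kept probe set of the 20 genes with more than 1 (filled, the probe set with the highest mean, used elsewhere; open, the others), in IRF8 KO and in IRF4/8 DKO. The probe sets of Ctsb and Lipa lie right of 0 in both panels and those of Ctsh left of it, while those of Atg7 and Map1lc3b straddle 0.

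Other genes of these pathways were read from lists picked by function, also with earlier results of these data known. Of 144 genes, 131 were measured. None passed the limma test in any comparison. At an unadjusted p under 0.05, 10 of 131 were higher and 3 lower in IRF8 KO (6.48% and 5.53% of all genes), 10 higher and 1 lower in the double knockout (4.25% and 3.75%), and 3 higher and 4 lower between the knockout genotypes (3.87% and 3.91%). As shares of the list, 9.92%, 8.4% and 5.34% passed in either direction, with 12%, 8% and 7.79% of all genes. The median log2 fold change was 0.19 in IRF8 KO and 0.23 in IRF4/8 DKO, against 0.04 and 0.03 for all genes, with 78 and 93 of 131 above WT, when 53.1% and 52.5% of all genes were. Among the MiT/TFE factors and their regulators, 7 and 10 of 12 lay above WT. Tfec, a relative of Tfeb, read 2433 and 2971 in WT mice, 5865 and 4233 with IRF8 deleted and 3899 and 3704 with both deleted. Its knockout arrays were all above WT, and the log2 fold change in IRF8 KO was 0.89 ± 0.24 (limma unadjusted p = 0.00547, adjusted p = 0.182). Mitf, another member of the family, read 152 and 174, 232 and 192, and 261 and 851 (1.48 ± 0.57 in IRF4/8 DKO, limma adjusted p = 0.467). Rragd, for a Rag GTPase that acts on TFEB through mTORC1, read 27.8 and 29.2, 60.7 and 53.4, and 43.0 and 13.2.

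Hydrolase and membrane protein genes outside the 36 are read against the same shares of all genes above WT, 53.1% in IRF8 KO and 52.5% in the double knockout. Of 24 hydrolase and cofactor genes, 17 lay above WT in each knockout genotype, with Galc, for galactosylceramidase, at 97.6 and 148 in WT mice, 252 and 535 with IRF8 deleted and 192 and 318 with both deleted (log2 fold change 1.53 ± 0.52 in IRF8 KO, limma adjusted p = 0.262). Man2b1, for lysosomal alpha-mannosidase, read 1712 and 1553, 2342 and 2185, and 2423 and 3810 (0.89 ± 0.30 in IRF4/8 DKO, limma adjusted p = 0.371). Both genes were higher on each knockout array than on WT. Of 28 membrane and sorting genes, 17 and 21 lay above WT. Laptm4b, a lysosomal membrane protein gene, read 736 and 681 in WT mice, 1310 and 1514 with IRF8 deleted and 1511 and 1467 with both deleted (0.98 ± 0.32 and 1.06 ± 0.32, limma adjusted p = 0.244 and 0.309). Ctns, for the cystine exporter, read 123 and 217, 379 and 458, and 316 and 478. In both genes the knockout arrays did not overlap WT. Prcp, for a lysosomal carboxypeptidase, went the other way in the double knockout, at 1172 and 964 in WT mice, 995 and 794 with IRF8 deleted and 426 and 482 with both deleted (-1.21 ± 0.36, limma adjusted p = 0.312). Of the 9 other protease genes, 4 and 6 lay above WT. Tpp1, for tripeptidyl peptidase 1, read 655 and 437 in WT mice, 798 and 817 with IRF8 deleted and 845 and 1135 with both deleted, and Dpp7, for a dipeptidyl peptidase, read 84.3 and 75.5, 122 and 201, and 125 and 290. Both were above WT on every knockout array. Sgsh, for the heparan sulfate hydrolase sulfamidase, read 31.4 and 45.6, 17.4 and 35.6, and 80.6 and 170 in the same order, highest with both factors deleted (1.84 ± 0.49 against IRF8 KO, limma adjusted p = 0.532). Tmem192, a lysosomal membrane protein gene, read 368 and 501, 861 and 409, and 793 and 2114.

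Of 13 other V-ATPase subunits, 8 lay above WT in IRF8 KO and 9 in the double knockout. Atp6v1b2, for the B subunit that pairs with the product of Atp6v1a, read 1302 and 1586 in WT mice, 1995 and 3406 with IRF8 deleted and 1605 and 2940 with both deleted, and all of its knockout arrays were above WT. Atp6v0b read 1291 and 1433, 1738 and 1533, and 1571 and 3447, also above WT throughout. Atp6v1h, for the regulatory H subunit, read 665 and 924, 373 and 470, and 618 and 900. The IRF8 KO arrays were the lowest, and the double knockout arrays overlapped WT. Of 45 other autophagy genes, 25 and 30 lay above WT, close to the share of all genes in IRF8 KO. Rubcn, for rubicon, an inhibitor of autophagosome maturation, read 43.6 and 50.6 in WT mice, 116 and 201 with IRF8 deleted and 40.8 and 79.2 with both deleted (1.51 ± 0.47 in IRF8 KO, limma adjusted p = 0.226). Atg16l2 read 33.9 and 49.3, 195 and 84.0, and 29.9 and 40.6. Both were higher in IRF8 KO than in the other 4 arrays. Atg3, for the E2-like enzyme of ATG8 conjugation, was lowest there, at 2225 and 3430 in WT mice, 2070 and 1554 with IRF8 deleted and 3302 and 3448 with both deleted (0.91 ± 0.30 between the knockout genotypes, limma adjusted p = 0.543).

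Genes with and without the E-box had similar medians against WT, and less similar ones between the knockout genotypes. Of the 9 measured genes with CACGTG, 5 lay above WT in IRF8 KO and 9 in the double knockout, with medians of 0.09 and 0.47, and of the 21 without it 12 and 17, with medians of 0.03 and 0.39. Between the knockout genotypes, 7 of 9 with it and 15 of 21 without it lay higher in the double knockout, with medians of 0.364 and 0.187. The differences between genes with and without it were not tested.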

How the data were processed

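Per the series' design text, the authors hybridised RNA to Affymetrix Mouse Genome 430 2.0 arrays and computed normalized intensity values with the perfect-match/mismatch difference model of dChip 1.3; the deposited intensities are linear (0.69 to 16563.28). How low values were treated is not given there.

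Values were transformed to log2(intensity + 10.5), 10.5 being the 25th percentile. Probe sets above the 40th percentile of their array on at least 2 of 6 arrays were kept (29783, with 15254 left out). Symbols came from GEO's platform annotation (34945 probe sets with 1 symbol, 932 with several, 9160 with none in the table used). One limma model (3.58.1, R 4.3.3) covered all 3 genotypes (eBayes with trend, no covariates, threshold 0.05). It was also run on simulated data, with changes larger than that of any lysosome or autophagy gene described. That run cannot show the power at the size of their differences. The members and lists were chosen with earlier results of these data known. Genes given in full were those with the lowest unadjusted p in each role, up to 4, and those with every knockout array on 1 side of WT; the remaining genes are given as values. Of each list of other pathway genes, up to 3 with the lowest unadjusted p in any comparison are named. Genes of like pattern over the 6 arrays are not given. Alternatives were other pseudocounts, filters, normalizations, variance models, covariates, blocks and probe set summaries, only the genotypes compared, and leaving out each array. Arrays carry no depth; their number limits the precision.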

Additional observations from a re-analysis of the deposited data

Results flagged for a closer look

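The median of the 34 lysosome and autophagy genes in IRF8 KO differed in sign between the sexes. Between the male arrays it was 0.276 above WT on the log2 scale, and between the female arrays -0.130. This difference was not tested, since there was 1 array per sex and genotype, and age differs with it (12 and 22 weeks for the males, 19 and 12 weeks for the females). The median of 13 neutrophil maturation genes had the same split, at 2.59 in males and -0.223 in females, while that of 15 monocyte and macrophage genes was above WT in both sexes (0.93 and 0.379); the part of these markers was not tested. By gene, 18 of 34 had opposite signs in the sexes in IRF8 KO and 7 of 34 in IRF4/8 DKO. The share of all genes with opposite signs was not computed, so these counts are not read as particular to the 34 genes. No gene had opposite signs with both differences over 1 on the log2 scale, the closest being Atp6v1a in IRF8 KO, at 0.94 in males and -1.03 in females.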

How the results depend on the processing

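No gene of the 34 (33 to 35 with other filters) passed the adjusted limma test under any of the alternatives fitted. The lowest adjusted p over the alternatives was 0.0783 for Atg7 in IRF8 KO against WT (without IRF8KO replicate 2), 0.164 for Ctsb in IRF4/8 DKO against WT (replicate block) and 0.103 for Ulk1 in IRF4/8 DKO against IRF8 KO (without IRF8KO replicate 1). The median log2 fold change in IRF8 KO was 0.171 after median centring, where the median of all genes moved too, and ranged from -0.0388 to 0.233 as each array was left out, so it has no stable sign. In IRF4/8 DKO it ranged from 0.181 to 0.602 with an array left out, and against IRF8 KO from 0.0775 to 0.452. The count of genes above WT in IRF4/8 DKO ranged from 22 to 30 of 34 or 35. With the replicate number as a block, which cannot move the medians (0.0319, 0.417 and 0.256) in this balanced design, the count of calls among the 34 genes was 0, and their number at an unadjusted p under 0.05 went from 3 to 5 in IRF8 KO, from 2 to 9 in IRF4/8 DKO and from 2 to 4 between the knockout genotypes. Calls over all probe sets went from 9 to 209, from 89 to 216 and from 0 to 1. Same-numbered arrays had deviations from their group means that correlated at 0.041, 0.188 and 0.211 over probe sets, so the numbers were not taken to pair the mice.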
